A study of Saccharomyces cerevisiae with 70 samples.

Results

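The genes described are the 5 peroxiredoxins of budding yeast and sulfiredoxin, an enzyme that repairs some of them. The 6 genes, TSA1, TSA2, AHP1, PRX1, DOT5 and SRX1, were matched by the gene symbol of the array probes, and all 6 were found on each of the 3 array types, of 5577 genes measured on at least 1 of them.

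Peroxiredoxins reduce hydrogen peroxide and organic peroxides with a reactive cysteine. In most of them the oxidised cysteine is returned to its reduced state by thioredoxin, which thioredoxin reductase recharges from NADPH. At high peroxide the cysteine of some of them can be oxidised further to a form that thioredoxin cannot reduce, and sulfiredoxin reverses this step with ATP. In yeast, transcription of several of these genes is known to depend on Yap1 and Skn7, transcription factors of the oxidative stress response.

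Cell cultures were synchronised and followed over time on arrays with 2 dyes in 4 courses, 2 with hydrogen peroxide and 2 with menadione, a quinone that generates superoxide by redox cycling. Peroxide I (0.24 mM hydrogen peroxide, 23 arrays at 21 times from 0 to 275 min) held cells released from alpha factor, the mating pheromone that arrests cells in G1. Menadione I (2 mM menadione, 14 arrays at 14 times up to 210 min) is described by its optical densities alone. Peroxide II (17 arrays at 17 times up to 180 min) and menadione II (16 arrays at 16 times up to 140 min) both used strain DBY8724 released from G1 arrest, and no dose is given for either. The first series below is peroxide I and menadione I, and the second is peroxide II and menadione II. Each sample carried Cy5, and RNA of an asynchronous culture carried Cy3 on the same array. The values are taken as log2 ratios of sample to this culture, centred on the median gene of each array. No course without an oxidant is among the samples, and the labels give no time at which the oxidant was added. A change over time therefore holds the oxidant and the release from arrest together, and these cannot be told apart. Bulk RNA also cannot tell a change in every cell from a larger change in some cells.

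The arrest label was checked with 15 genes of the pheromone response at 0 min. Of these, 13 lay above 0 in peroxide II, 12 in menadione II, 10 in peroxide I and 14 in menadione I, with median log2 ratios of 1.35, 1.42, 0.93 and 1.23. With the median gene of each array at 0, as many of all genes lie above 0 as below it. The count of 10 of 15 in peroxide I is not far from that share, and menadione I carries no arrest label. Repeat arrays at 20 and at 63 min of peroxide I correlated over genes at 0.127 and 0.407, and their means were used. Across genes, the correlation of the least alike arrays in peroxide I was -0.303. The labels name the dyes but not which was divided by which, and Cy5 over Cy3 was taken as the direction, with the pheromone genes as its check. The same genes served for the arrest and for the direction, so neither was checked apart from the other. In peroxide II the arrays of 14, 21 and 28 min were scanned on one day and the other 14 on another. Menadione II was scanned on a day that peroxide II did not share, so the tests between these courses compare changes within each course, and values of both at one time are given as a description.

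In each course the arrays of the first 21 min served as the baseline, and 3 later windows (22 to 50 min, 51 to 90 min and everything after 90 min) were each compared with that baseline in limma. Adjusted p-values are by Benjamini-Hochberg over all genes tested, with a threshold of 0.05. A course is 1 culture, so the replicates are time points, and the p-values say nothing of how cultures vary. The windows of a course share their baseline arrays.

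The 6 mRNAs showed 3 patterns. TSA1, TSA2, AHP1 and PRX1 each rose in 6 or 7 of the 12 windows tested, SRX1 rose in 2, both at 51 to 90 min, and DOT5 in 0. At 51 to 90 min TSA2 had the largest change of the 6 in peroxide II, peroxide I and menadione I, and PRX1 in menadione II. The highest TSA2 array was 148.5-fold above the mean of the first 21 min in peroxide I. Of the 72 results for 6 genes in 12 windows, 28 were rises past the threshold and 0 were falls. Over the 12 windows, from 0% to 8.99% of all genes tested rose and from 0% to 8.72% fell. A count of 0 falls among 6 genes is near the share of all genes.

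At 51 to 90 min of peroxide II, 4 of the 6 genes rose (TSA1, TSA2, AHP1 and PRX1), where 8.99% of all genes tested rose. In menadione II the same 4 rose at 51 to 90 min, where 2.17% of all genes did. In peroxide I 5 of the 6 rose in that window (all but DOT5), where 6.54% of all genes did. In menadione I 4 rose (TSA1, TSA2, AHP1 and SRX1), where 1.22% of all genes did. The median change over the 6 genes in this window was 2.77, 2.42, 2.35 and 2.63 on the log2 scale in peroxide II, menadione II, peroxide I and menadione I, and that over all genes tested was at most 0.05.

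At 22 to 50 min TSA1, TSA2 and PRX1 rose in peroxide II, where 2.76% of all genes rose. None of the 6 passed the limma test at 22 to 50 min in peroxide I, where 0.505% of all genes rose. Of the 6, 4 had an unadjusted p under 0.05, as did 808 of the 5548 genes tested. None passed it in menadione II or menadione I, where 0% of all genes rose. In these courses 2 and 1 of the 6 had an unadjusted p under 0.05, as did 444 of 5538 and 174 of 5498 genes. After 90 min, 2 of the 6 rose in peroxide II (TSA1 and PRX1), where 0.507% of all genes did. In menadione II 3 rose (TSA2, AHP1 and PRX1), where 1.21% of all genes did. In menadione I 3 rose (TSA1, TSA2 and AHP1), where 1.1% of all genes did. In peroxide I 0 of the 6 passed the limma test after 90 min, where 0.0721% of all genes rose. Of the 6, 1 had an unadjusted p under 0.05, as did 423 of the 5551 genes tested. That window averages times from 105 to 275 min, and TSA2 read 6.28 at 105 min and 0.05 at 275 min.

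**Figure D1:**
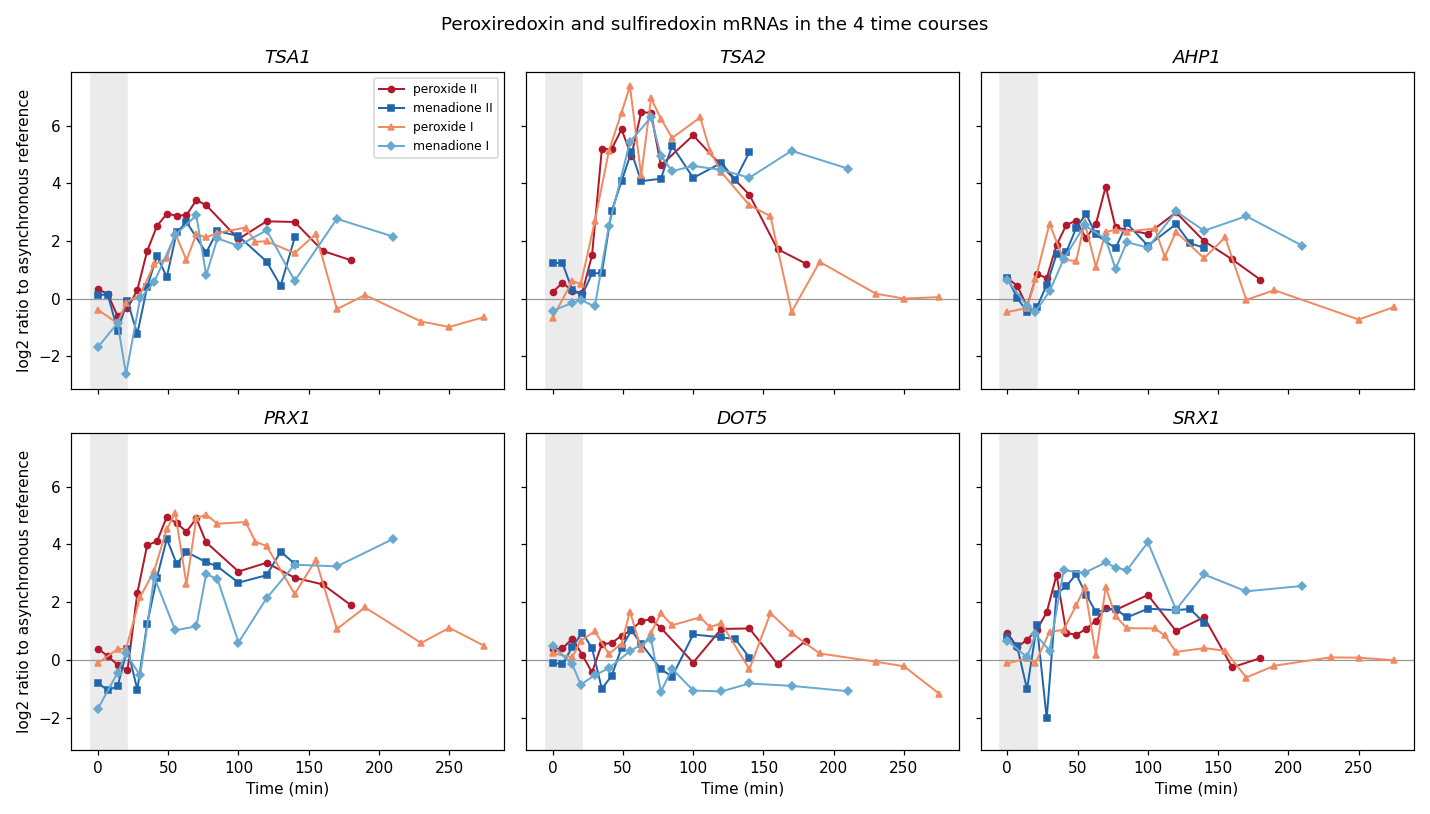
Log2 ratio to the asynchronous reference (vertical axis) against time in min (horizontal axis) for each gene, 1 point per time, with the first 21 min shaded. TSA2 reached 6.47 in peroxide II, 5.30 in menadione II, 7.36 in peroxide I and 6.29 in menadione I, while DOT5 stayed between -1.17 and 1.67 in all 4 courses.

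TSA1 and TSA2 encode paired cytosolic peroxiredoxins, Tsa1 being the abundant one and Tsa2 its less abundant paralog. The genes are similar in sequence, and cross-hybridisation between their probes was not tested. In peroxide II, TSA2 stood at 4.96, 6.47, 6.44 and 4.62 at 56, 63, 70 and 77 min, against 0.22, 0.55, 0.27 and 0.20 at 0, 7, 14 and 21 min. Every later array lay above every early one, and the change was 5.31 ± 0.81 (SE, adjusted p = 0.000114), a 39.75-fold rise. TSA2 had the third largest change of the 5519 genes tested in that window, at rank 3.

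In peroxide II the gene had already gone up before this window. It read 1.50 at 28 min and 5.18, 5.19 and 5.87 at 35, 42 and 49 min, a change at 22 to 50 min of 4.13 ± 0.81 (SE, adjusted p = 0.00319). This call was lost when only the arrays of the windows compared were fitted (adjusted p = 0.0888) and with other window limits (0.142). After 90 min it came down steadily, reading 5.66, 4.61, 3.60, 1.72 and 1.22 at 100, 120, 140, 160 and 180 min, all still above the early arrays. The change after 90 min was 3.05 ± 0.77 (SE, adjusted p = 0.0577) and did not pass the threshold. It passed with arrays scaled to the same spread (adjusted p = 0.00376), other window limits (0.0152), array weights (0.0411) or no centring (0.0223), and without the array of 160 min (0.036) or that of 180 min (0.0182).

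In menadione II, TSA2 lay within its early range at 28 and 35 min. It read 0.87 and 0.90 at 28 and 35 min and 3.04 and 4.07 at 42 and 49 min, against 1.25, 1.23, 0.29 and 0.12 in the first 21 min, and the change at 22 to 50 min was 1.49 ± 0.81 (SE, adjusted p = 0.67). It then read 5.09, 4.07, 4.16 and 5.30 at 56, 63, 77 and 85 min, a rise of 3.93 ± 0.81 (SE, adjusted p = 0.00504). At 100, 120, 130 and 140 min it still stood at 4.19, 4.71, 4.13 and 5.08, a rise of 3.80 ± 0.81 (SE, adjusted p = 0.00788). The groups did not overlap in either of these later windows.

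The first series was sampled at other times. In peroxide I TSA2 read 2.68, 5.12 and 6.45 at 30, 40 and 49 min, against -0.67, 0.62 and 0.50 at 0, 14 and 20 min, the largest change of the 5548 genes tested at 22 to 50 min (4.60 ± 1.43, SE), with an adjusted p of 0.134. Its 51 to 90 min arrays read 7.36, 4.28, 6.94, 6.25 and 5.57, a rise of 5.93 ± 1.28 (SE, adjusted p = 0.00254) and 60.98-fold, with no overlap. At 105, 112, 120, 140 and 155 min it still read 6.28, 5.12, 4.39, 3.24 and 2.86, and at 170 and 190 min it read -0.46 and 1.28. From 230 min it was back at 0.17, 0.01 and 0.05, within the early range. Averaged over all these times, the change after 90 min was 2.14 ± 1.15 (SE, adjusted p = 0.704). In menadione I it read -0.27 at 30 min and 2.52 at 40 min, then 5.43, 6.29, 4.96 and 4.42 at 55, 70, 77 and 85 min, against -0.42, -0.15 and -0.05 in the first 21 min (5.48 ± 0.56, SE, adjusted p = 4.72e-05). At 210 min it was still at 4.51, and the rise after 90 min was 4.78 ± 0.54 (SE, adjusted p = 0.000141).

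TSA1 had a smaller change than TSA2 in each window compared except 22 to 50 min of menadione I (2.01 for TSA1 and 1.33 for TSA2, neither past the threshold). In peroxide II it read 2.88, 2.90, 3.42 and 3.24 at 51 to 90 min, against 0.34, 0.15, -0.61 and -0.34 in the first 21 min, with no overlap. The change was 3.22 ± 0.51 (SE, adjusted p = 0.000144), 9.34-fold. Menadione II arrays read 2.30, 2.66, 1.60 and 2.35, against 0.13, 0.14, -1.10 and -0.09, also without overlap (2.45 ± 0.51, SE, adjusted p = 0.00505). In peroxide I it read 2.27, 1.34, 2.24, 2.12 and 2.28, against -0.38, -0.86 and -0.13 (2.51 ± 0.70, SE, adjusted p = 0.0162). That call was lost without the 14 min array (adjusted p = 0.0783) and with arrays scaled to the same spread (0.0614).

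The change of TSA1 in menadione I was its largest, and its early arrays there were its lowest. It read 2.21, 2.89, 0.81 and 2.09 at 55, 70, 77 and 85 min, against -1.68, -0.84 and -2.62 at 0, 14 and 20 min (3.71 ± 0.57, SE, adjusted p = 0.00248). Later arrays of 1.83, 2.37, 0.62, 2.77 and 2.16 kept it 3.66 ± 0.55 above the first 21 min (SE, adjusted p = 0.00126). In the other 3 courses no early array of TSA1 was below -1.10.

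The other TSA1 windows were closer to the threshold. At 22 to 50 min of peroxide II it read 0.30, 1.65, 2.52 and 2.94 (1.97 ± 0.51, SE, adjusted p = 0.025), with the 28 min array within the early range. This call was lost without any 1 of the arrays of 14, 21, 42 and 49 min (adjusted p from 0.0597 to 0.12), with the scan day as a covariate (0.0648), with only the arrays of the windows compared (0.318) and with other window limits (0.596). After 90 min of peroxide II it read 2.07, 2.68, 2.66, 1.66 and 1.33, without overlap (2.19 ± 0.48, SE, adjusted p = 0.0223). After 90 min of menadione II it read 2.17, 1.29, 0.44 and 2.12, and the change of 1.74 ± 0.51 missed the threshold (SE, adjusted p = 0.0537). It passed with other window limits (adjusted p = 0.00765), with array weights (0.0371) and without the 130 min array (0.039). In peroxide I TSA1 was still at 2.24 at 155 min, and from 170 min on it read -0.36, 0.13, -0.79, -0.98 and -0.63.

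AHP1 encodes a peroxiredoxin that prefers alkyl hydroperoxides. Its rises at 51 to 90 min were of similar size in all 4 courses. In peroxide II it read 2.10, 2.59, 3.89 and 2.47, against 0.71, 0.45, -0.27 and 0.86 in the first 21 min (2.32 ± 0.48, SE, adjusted p = 0.00177). With menadione II the values were 2.95, 2.23, 1.75 and 2.61, against 0.71, 0.03, -0.46 and -0.30 (2.39 ± 0.48, SE, adjusted p = 0.00423). In peroxide I it read 2.65, 1.10, 2.31, 2.39 and 2.33, against -0.46, -0.32 and 0.67 (2.19 ± 0.63, SE, adjusted p = 0.0197). The later and early values did not overlap in these 3 courses, with the repeat arrays of peroxide I averaged. Taken singly, the first array at 63 min of peroxide I read 0.38, below the 20 min arrays at 0.70 and 0.65. The peroxide I call was lost without the array of 14 min (adjusted p = 0.0851) or of 0 min (0.0853) and with arrays scaled to the same spread (0.0915).

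In menadione I AHP1 read 2.55, 2.06, 1.03 and 1.96, against 0.64, -0.24 and -0.45 (1.92 ± 0.48, SE, adjusted p = 0.048), and after 90 min it read 1.77, 3.02, 2.36, 2.86 and 1.83 (2.39 ± 0.46, SE, adjusted p = 0.011). The groups did not overlap in either window. The call at 51 to 90 min was lost without any 1 of the arrays of 0, 14, 20, 55, 70 and 85 min, with adjusted p from 0.0521 to 0.186. The call after 90 min was lost without the array of 14 min (adjusted p = 0.0753) or of 20 min (0.102).

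AHP1 was also higher after 90 min of menadione II, at 1.84, 2.58, 1.92 and 1.76 (2.03 ± 0.48, SE, adjusted p = 0.017), a call lost without the array of 14 min (adjusted p = 0.0611) or of 120 min (0.0509). At 22 to 50 min it read 0.71, 1.86, 2.56 and 2.70 in peroxide II and 0.48, 1.53, 1.62 and 2.45 in menadione II, and neither change passed the threshold (1.52 and 1.53, adjusted p = 0.0657 and 0.271). Without the 28 min array the peroxide II change passed it (adjusted p = 0.00843). In peroxide II the arrays after 90 min read 2.25, 2.99, 2.00, 1.36 and 0.66, the last of which lay within the early range, and the change of 1.41 ± 0.46 had an adjusted p of 0.172. In peroxide I AHP1 was still at 2.13 at 155 min and read -0.04, 0.29, -0.72 and -0.29 at 170, 190, 250 and 275 min, with no value at 230 min.

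PRX1 encodes the mitochondrial peroxiredoxin. Its changes at 51 to 90 min ranked from 6 to 10 among all genes in peroxide II, menadione II and peroxide I. In peroxide II it read 4.74, 4.44, 4.91 and 4.07, against 0.39, 0.13, -0.17 and -0.37 in the first 21 min (4.55 ± 0.63, SE, adjusted p = 3.71e-05), 23.36-fold. The menadione II arrays read 3.32, 3.74, 3.39 and 3.23, against -0.80, -1.06, -0.91 and 0.39 (4.02 ± 0.63, SE, adjusted p = 0.000395), 16.19-fold. In peroxide I it read 5.08, 2.62, 4.91, 5.03 and 4.72, against -0.11, 0.37 and 0.38 (4.26 ± 0.86, SE, adjusted p = 0.00153), 19.12-fold. The groups did not overlap in any of the 3 courses.

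Of the 6 genes, PRX1 had the highest array at 28 min of peroxide II. It read 2.31, 3.97, 4.11 and 4.96 at 28, 35, 42 and 49 min, all above the early arrays (3.84 ± 0.63, SE, adjusted p = 0.000431). In menadione II it read -1.03, 1.25, 2.85 and 4.20 at those times (2.41 ± 0.63, SE, adjusted p = 0.126), and without the 28 min array the change was 3.36 with an adjusted p of 0.00262. After 90 min it read 3.06, 3.36, 2.84, 2.61 and 1.90 in peroxide II (2.76 ± 0.60, SE, adjusted p = 0.0215) and 2.68, 2.93, 3.75 and 3.33 in menadione II (3.77 ± 0.63, SE, adjusted p = 0.00122). Both sets lay above the early arrays. In peroxide I all 18 later times lay above the early values with the pair of 20 min arrays averaged, down to 0.48 at 275 min. Taken singly, the redo array at 20 min read 0.64, above the 0.58 at 230 min and the 0.48 at 275 min.

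In menadione I the value of PRX1 depended on the probe. The array type of that course carried 2 probes each for TSA2, PRX1 and DOT5 and 1 for the others. The first PRX1 probe read 3.92, 4.76, 2.97 and 3.26 at 55, 70, 77 and 85 min, against -0.79, 0.03 and -1.42 at 0, 14 and 20 min. The second read -1.87, -2.43 and 2.35 at 55, 70 and 85 min, with no value at 77 min, against -2.60, -0.92 and 1.86 in the first 21 min. Across the 10 arrays with both, the probes correlated at 0.028 and differed by a median of 3.41, whereas those of TSA2 correlated at 0.965 and those of DOT5 at 0.742 over 14 arrays.

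The averaged PRX1 value in menadione I mixed these probes. Where the second probe gave no value, at 40, 77, 140 and 210 min, it was that of the first probe, 2.87, 2.97, 3.30 and 4.19, and at 55, 70 and 100 min, with both, it was 1.02, 1.16 and 0.60. With the average, PRX1 did not pass the test at 51 to 90 min (2.63 ± 0.86, SE, adjusted p = 0.136) or after 90 min (3.33 ± 0.82, SE, adjusted p = 0.0538). The change after 90 min passed with array weights (adjusted p = 0.0191), with other window limits (0.0362), with only the arrays of the windows compared (0.0477) and without the 100 min array (0.0153). With the first probe alone, an alternative added after the values were seen, the changes were 4.45 (adjusted p = 0.00249) and 4.62 (adjusted p = 0.000712). With the second probe alone PRX1 had too many missing values to be tested.

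**Figure D2:**
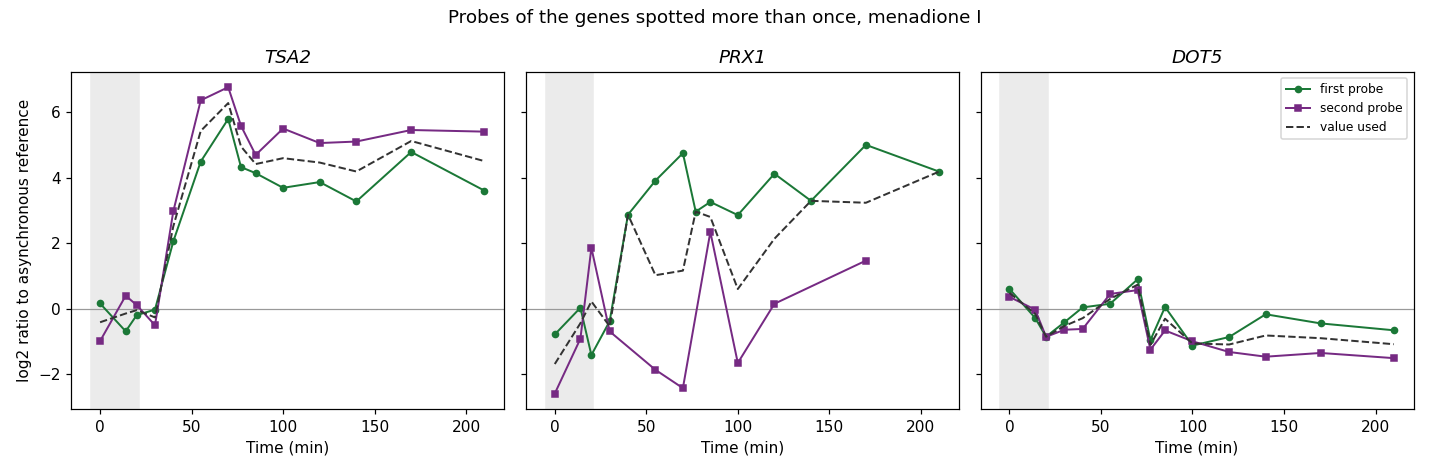
Log2 ratio to the asynchronous reference (vertical axis) against time in min (horizontal axis) in menadione I for the genes with 2 probes, with the first 21 min shaded. Solid lines are single probes and the dashed line is the value used. The PRX1 probes correlated at 0.028 and those of TSA2 at 0.965.

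DOT5 encodes a nuclear peroxiredoxin, first known as a gene that disrupts telomeric silencing at high dosage. It passed the test in 0 of the 12 windows. In peroxide II it read 1.04, 1.35, 1.40 and 1.10 at 51 to 90 min, against 0.38, 0.39, 0.74 and 0.18 in the first 21 min, and these arrays did not overlap. The change of 0.80 ± 0.39 (SE, 95% interval 0.0021 to 1.60) had an adjusted p of 0.175. In menadione II it read 1.02, 0.55, -0.32 and -0.58, against -0.11, -0.15, 0.44 and 0.94, with overlapping groups (-0.11 ± 0.39, SE, adjusted p = 0.907). In peroxide I it read 1.67, 0.37, 0.93, 1.62 and 1.20, against 0.23, 0.09 and 0.66, also overlapping (0.83 ± 0.50, SE, adjusted p = 0.304).

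The lowest DOT5 window was that after 90 min of menadione I. The arrays read -1.06, -1.10, -0.82, -0.90 and -1.09, against 0.48, -0.16 and -0.86, so that 4 of the 5 lay below the early range. The change was -0.82 ± 0.43 (SE, 95% interval -1.71 to 0.08, adjusted p = 0.411). With arrays of this number, a change of DOT5 as large as the upper bounds, up to 1.86 at 51 to 90 min of peroxide I, is within the intervals.

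SRX1 encodes sulfiredoxin. It rose at 51 to 90 min in both courses of the first series. In peroxide I it read 2.52, 0.18, 2.52, 1.52 and 1.10 at 55, 63, 70, 77 and 85 min, against -0.13, 0.05 and -0.11 (1.63 ± 0.42, SE, adjusted p = 0.01). In menadione I it read 3.02, 3.38, 3.20 and 3.10, against 0.67, 0.09 and 0.88 (2.63 ± 0.59, SE, adjusted p = 0.0285). The groups did not overlap in menadione I, nor in peroxide I with its repeat arrays averaged. Taken singly, the first array at 63 min of peroxide I read -0.004, below the 0.05 at 14 min. The menadione I call was lost without any 1 of the arrays of 0, 14, 20, 70, 77 and 85 min, with adjusted p from 0.0517 to 0.146, and with arrays scaled to the same spread (0.0626).

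In the second series SRX1 had its highest array at 35 min with peroxide and at 49 min with menadione, and it did not pass the test in any window. In peroxide II it read 1.64, 2.94, 0.94 and 0.86 at 28, 35, 42 and 49 min, against 0.93, 0.44, 0.69 and 1.04, so that the peak rests on 1 array (0.82 ± 0.69, SE, adjusted p = 0.556). At 51 to 90 min it read 1.07, 1.35, 1.80 and 1.73, just above the early arrays (0.71 ± 0.69, SE, adjusted p = 0.533). In menadione II it read -2.03, 2.29, 2.55 and 2.97 at 28, 35, 42 and 49 min, against 0.80, 0.46, -1.02 and 1.20 (1.09 ± 0.69, SE, adjusted p = 0.734). It then read 2.26, 1.66, 1.77 and 1.47 at 51 to 90 min (1.43 ± 0.69, SE, adjusted p = 0.242), all above the early arrays.

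The late SRX1 values are given by course. At 160 and 180 min of peroxide II it read -0.26 and 0.06, and from 120 min on in peroxide I it stayed between -0.61 and 0.41. In menadione II it read 1.77, 1.72, 1.76 and 1.28 after 90 min, and in menadione I 4.07, 1.74, 2.96, 2.38 and 2.56. Neither change after 90 min passed the threshold with menadione (1.28 ± 0.69, SE, adjusted p = 0.341, and 2.20 ± 0.56, SE, adjusted p = 0.0699). The menadione I change passed with other window limits (adjusted p = 0.044) and with array weights (0.0454).

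**Figure D3:**
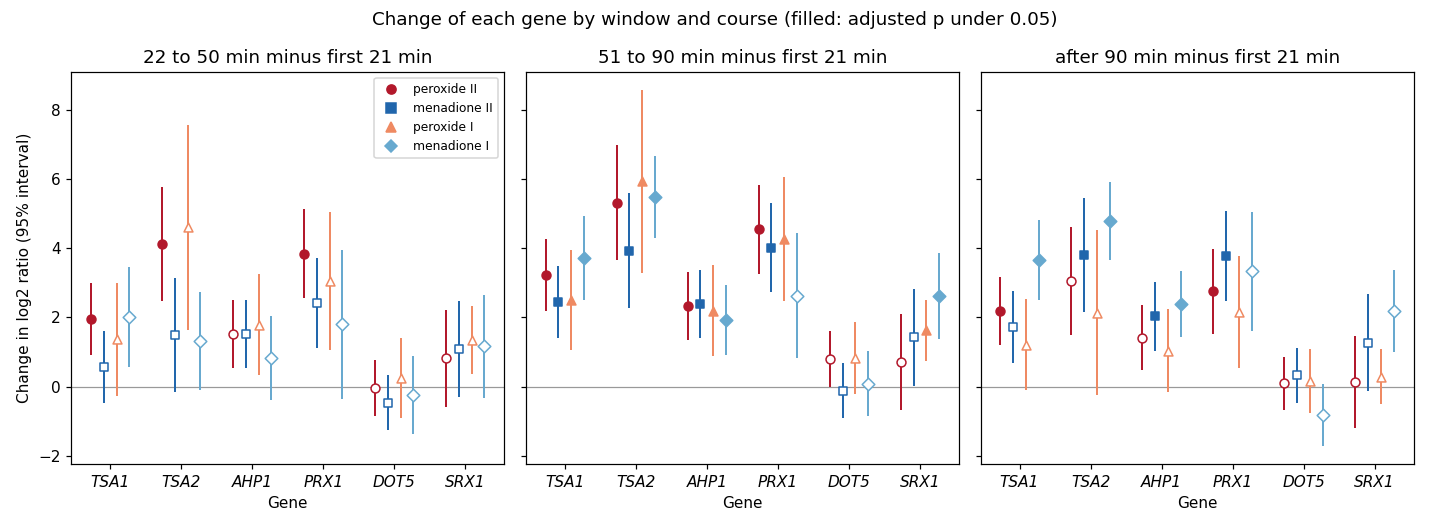
Change in log2 ratio from the first 21 min (vertical axis) for each gene (horizontal axis), with 1 panel per later window and 1 marker shape per course. Points are limma estimates, bars are 95% intervals, and filled points have an adjusted p under 0.05. At 51 to 90 min TSA2 changed by 5.31, 3.93, 5.93 and 5.48 in peroxide II, menadione II, peroxide I and menadione I, and no DOT5 point is filled in any panel.

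Several peroxide II calls moved with the scan day. With only the arrays of the first scan day, TSA1, TSA2, AHP1 and PRX1 still rose at 51 to 90 min, by 2.86, 5.23, 2.18 and 4.28 (adjusted p = 0.00218, 0.000728, 0.0148 and 0.000815). TSA1, TSA2 and PRX1 still rose at 22 to 50 min, by 2.13, 5.03 and 4.09 (adjusted p = 0.0339, 0.00161 and 0.00215). After 90 min the changes of TSA1 and PRX1 were 1.84 and 2.50, and neither passed the threshold (adjusted p = 0.202 and 0.187). The second day holds 28 min as its only later array, where TSA1, TSA2 and PRX1 were 0.77, 1.27 and 2.58 above 14 and 21 min. The calls of TSA1 and PRX1 after 90 min of peroxide II were also lost without any 1 of the arrays of 14, 21, 100, 120 and 140 min, with adjusted p from 0.0536 to 0.0924.

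The question of whether the agents differed was asked in the second series, where both courses used the same strain and array type. The change of each gene in peroxide II was set against its change in menadione II as an interaction. Of the 18 differences tested, 0 passed the threshold in limma, and 1, that of TSA2 at 22 to 50 min, had an unadjusted p under 0.05. Among all genes 0% passed the threshold at 22 to 50 min, 0.145% at 51 to 90 min and 1.09% after 90 min. An unadjusted p under 0.05 was held by 588 of 5500 genes at 22 to 50 min. It was held by 815 of 5517 at 51 to 90 min and 813 of 5519 after 90 min, so 1 of 18 is not above the share of all genes. The doses are not given in the labels for these courses, so they may differ.

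For TSA2 the difference of changes at 22 to 50 min was 2.63 ± 1.15 (SE, 95% interval 0.29 to 4.97, adjusted p = 0.397). At matched times TSA2 read 5.18 in peroxide II and 0.90 in menadione II at 35 min, and at 42 min it read 5.19 in peroxide II and 3.04 in menadione II. Of 14 matched times, TSA2 was higher in peroxide II at 8, and its largest difference was that at 35 min. PRX1 read 2.31 in peroxide II and -1.03 in menadione II at 28 min, its largest difference. At 35 min it read 3.97 in peroxide II and 1.25 in menadione II. PRX1 was higher in peroxide II at 12 of the 14 times. These included 0 and 7 min, at 0.39 and 0.13 in peroxide II and -0.80 and -1.06 in menadione II. The PRX1 difference of changes at 22 to 50 min was 1.43 ± 0.90 (SE, 95% interval -0.40 to 3.26, adjusted p = 0.59). AHP1 had a difference near 0 in both earlier windows, of -0.01 ± 0.68 at 22 to 50 min (SE, 95% interval -1.40 to 1.39, adjusted p = 0.999) and of -0.06 ± 0.68 at 51 to 90 min (SE, 95% interval -1.46 to 1.33, adjusted p = 0.979).

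The intervals of the other differences reached from below 0 to above 0. For TSA1 at 22 to 50 min the difference was 1.38 (95% interval -0.09 to 2.85, adjusted p = 0.498). For DOT5 at 51 to 90 min it was 0.92 (95% interval -0.21 to 2.05, adjusted p = 0.456). For SRX1 it was -0.27, -0.72 and -1.15 in the 3 windows, and after 90 min its 95% interval ran from -3.07 to 0.78 (adjusted p = 0.618). After 90 min the differences of TSA2 and PRX1 were -0.75 (95% interval -3.04 to 1.53, adjusted p = 0.817) and -1.01 (95% interval -2.79 to 0.78, adjusted p = 0.642).

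**Figure D4:**
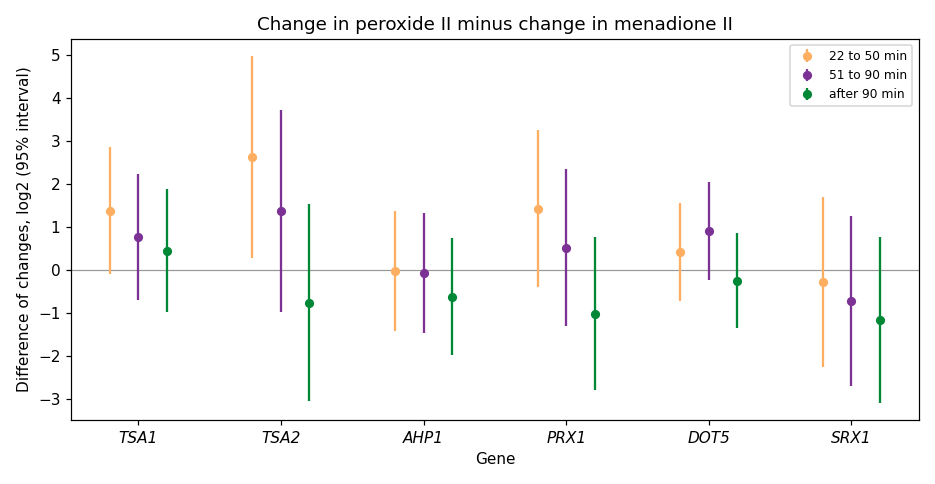
Change in peroxide II minus change in menadione II on the log2 scale (vertical axis) for each gene (horizontal axis) in 3 windows. Points are limma estimates and bars are 95% intervals. TSA2 at 22 to 50 min, at 2.63, is the only point whose interval lies wholly above 0, and its adjusted p was 0.397.

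Genes that supply peroxiredoxins with electrons or act beside them were followed as a list of 14. These are the thioredoxins TRX1, TRX2 and TRX3, the thioredoxin reductases TRR1 and TRR2, the glutathione peroxidase-like enzymes GPX1, GPX2 and HYR1, the methionine sulfoxide reductases MXR1 and MXR2, the regulators YAP1, SKN7 and YBP1, and cytosolic catalase CTT1. In peroxide II 3 of the 14 rose at 22 to 50 min, 7 at 51 to 90 min and 1 after 90 min. In menadione II 0, 3 and 1 rose, in peroxide I 0 (of 13 tested), 6 and 0, and in menadione I 0, 3 and 3. None fell in any window. Of all genes tested, 2.76%, 8.99% and 0.507% rose in the 3 windows of peroxide II, 0%, 2.17% and 1.21% in menadione II, 0.505%, 6.54% and 0.0721% in peroxide I and 0%, 1.22% and 1.1% in menadione I, and from 0% to 8.72% fell. At 51 to 90 min the median change of the list was 1.08 in peroxide II, 0.44 in menadione II, 0.78 in peroxide I and 0.76 in menadione I, below that of the 6 genes in each course.

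At 51 to 90 min of peroxide II the largest changes in the list were those of TRR1, cytosolic thioredoxin reductase (3.99 ± 0.62, SE, adjusted p = 0.000115), and GPX2 (3.81 ± 0.63, SE, adjusted p = 0.000198). TRX2, a cytosolic thioredoxin, changed by 2.60 (adjusted p = 0.00177) and YAP1 by 2.28 (adjusted p = 0.011). In menadione II the largest were GPX2 (2.99, adjusted p = 0.00535), TRR1 (2.78, adjusted p = 0.00697) and TRX2 (2.22, adjusted p = 0.0128), with CTT1 at 1.14 (adjusted p = 0.311). Between the agents, 1 of the 14 genes passed the test after 90 min, where 1.09% of all genes did. MXR1, which repairs oxidised methionine, changed by 1.36 in peroxide II and by -1.0 in menadione II after 90 min, a difference of 2.36 ± 0.51 (SE, adjusted p = 0.0293), and it is named here after its value was seen. The call was lost with matched times as a replicate block (1.86, adjusted p = 0.22), with the scan day as a covariate (2.11, adjusted p = 0.079), with the first scan day alone (2.25, adjusted p = 0.0667) and without the array of 140 min of peroxide II (0.0543) or of 130 min of menadione II (0.0595).

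The genes whose time courses were most like each of the 6 were found from the Pearson correlation across the times of a course, averaged over the 4 courses (14 to 21 times each) and compared over 5511 genes. For TSA1 these were TSA2 (0.885) and PST2 (0.870), and for TSA2 they were PST2 (0.932) and OSI1 (0.931). For AHP1 they were TSA2 (0.875) and GPX2 (0.867), and for PRX1 GPX2 and YNL134C (both 0.878). SRX1 was most like GRX2, a glutaredoxin (0.748), and GPX2 (0.725). DOT5 had no gene as like it, with MLC1 and ABP1 at 0.599 and 0.591. These values are descriptions, since the times of a course share 1 culture and all arrays of a course share 1 reference RNA.

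Among the 6 themselves, TSA1, TSA2, AHP1 and PRX1 correlated with each other at 0.867 to 0.931 in peroxide II, 0.794 to 0.901 in menadione II and 0.839 to 0.961 in peroxide I. In menadione I the pairs without PRX1 correlated at 0.848 to 0.895, and those with the averaged PRX1 value at 0.605 to 0.693. SRX1 followed TSA2 at 0.537 in peroxide II, 0.571 in menadione II, 0.877 in peroxide I and 0.862 in menadione I. DOT5 followed TSA1 at 0.629 in peroxide II and 0.707 in peroxide I, against -0.007 in menadione II and -0.068 in menadione I.

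**Figure D5:**
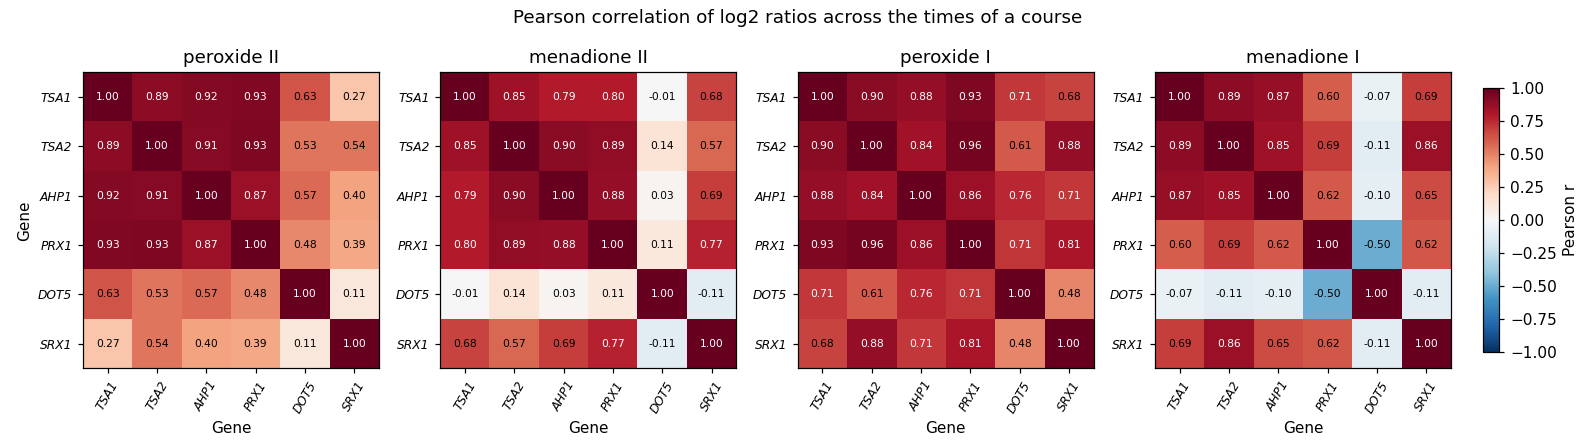
Pearson correlation of log2 ratios across the times of each course between the 6 genes on both axes, on a colour scale from -1 to 1. TSA1, TSA2, AHP1 and PRX1 form a block of high values in peroxide II, menadione II and peroxide I. In menadione I the averaged PRX1 value lies at 0.605 to 0.693 with TSA1, TSA2 and AHP1. DOT5 against TSA1 is 0.63 in peroxide II and -0.07 in menadione I.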

How the data were processed

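The deposited values were used as log2 ratios of Cy5 sample to Cy3 reference. The dyes are per the labels, while the log base, the direction of the ratio, the spot filter, background correction and normalisation that the authors applied are not given in the sources used here. Base 2 was assumed and not tested. Direction was judged from pheromone genes, which takes the arrest as given. Probes were named through the platform annotation with symbols updated by gene identifier, values of a gene's probes and of repeat arrays were averaged, and the median gene of each array was set to 0. No column was left without a sample. Missing spots took 1.2% to 26.9% of an array. A gene was tested if 75% of a table's arrays, and 2 arrays of each window compared, held a value for it. Window means were fitted in limma 3.58.1 under R 4.3.3, both courses of the second series together and the others alone, with Benjamini-Hochberg adjustment. The fit was tested on simulated data. The precision is limited by the number of arrays, and signal over background was not used here. The 6 genes, the lists and the tests were chosen with earlier results of these data known. Named were all 6 genes, up to 4 of the 14 pathway genes with the largest changes at 51 to 90 min of each second-series course, and for each of the 6 the 2 genes most like it. Alternatives were the centring, spread, arrays fitted, windows, filter, probe summary, array weights, scan day, repeat arrays, a replicate block of matched times and each array left out. The arrays of peroxide I after 90 min were not left out in turn.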

Additional observations from a re-analysis of the deposited data

Results flagged for a closer look

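Of the 72 sets of 4 to 10 arrays of a gene in a window, 6 held an array whose gap to its nearest neighbour was large against the whole range. Chance gives about 1 in 20 such sets. TSA2 at 28 min of peroxide II read 1.50, where the other arrays of 22 to 50 min lay between 5.18 and 5.87. SRX1 at 28 min of menadione II read -2.03, where the others lay between 2.29 and 2.97. SRX1 at 140 min of menadione II read 1.28, where the others lay between 1.72 and 1.77. These are times of 1 culture, and a course can itself move within a window.

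The 63 min point of peroxide I stood apart for TSA1 (1.34), AHP1 (1.10) and PRX1 (2.62), whose other arrays at 51 to 90 min began at 2.12, 2.31 and 4.72. That point is the mean of a pair of arrays, which read 0.50 and 2.18 for TSA1, 0.38 and 1.83 for AHP1 and 3.26 and 1.97 for PRX1. Without both 63 min arrays, an alternative added after the values were seen, all 5 calls of that window held.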

How the results depend on the processing

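No called change of the 6 genes turned its sign under any alternative run. With only the arrays of the windows compared, or with other window limits (22 to 40, 41 to 80 and after 80 min), 1 of the 6 genes (PRX1) rose at 22 to 50 min of peroxide II. Those fits called 15 and 6 of all genes, rises and falls together, against 152 rises and 65 falls in the main fit. The second scan day alone, with 0 calls, sets 1 array against 2 and says nothing of whether the calls hold. After 90 min of peroxide II, 4 rose after the arrays were brought to one spread, 0 with the scan day as a covariate and 0 with the first scan day alone. Of all genes, 126, 6 and 22 were called in those fits, against 28 rises and 7 falls in the main fit. Scaling gave 3 at 51 to 90 min of peroxide I and 2 at 51 to 90 min of menadione I, where other window limits also gave 2. In peroxide I scaling called 637 of all genes, against 363 rises and 484 falls in the main fit. In menadione I scaling called 68 and other window limits 58, against 68 rises and 38 falls in the main fit. After 90 min of menadione I, other window limits and array weights each gave 5 (adding PRX1 and SRX1). They called 97 and 95 of all genes, against 61 rises and 12 falls in the main fit. The cause was not tested. With each array left out in turn, counts ran from 2 to 4 and from 0 to 3 at 22 to 50 and after 90 min of peroxide II and from 0 to 1 at 22 to 50 min of menadione II (PRX1, without 28 min). They ran from 0 to 2 at 22 to 50 min of peroxide I (TSA2 and PRX1, without 30 min), from 3 to 5 at 51 to 90 min of peroxide I (3 without 14 min), and from 2 to 3 at 51 to 90 min of menadione I. Of all genes, 10 were called without 28 min of menadione II, 385 without 30 min of peroxide I and 601 without its 14 min. Leave-out fits with 0 of the 6 after 90 min of peroxide II called 16 to 27 of all genes. Those with 2 of the 6 at 51 to 90 min of menadione I called 32 to 70. At 51 to 90 min of the second series the count was 4 under every alternative run. In the fit of 14 matched times with the time as a replicate block, 0 of the 6 genes differed between agents in any window, and the TSA2 difference at 22 to 50 min was 2.63 (adjusted p = 0.234); the numbers pair times, not cultures. The number of arrays limits all of these.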

Other observations

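The order in which the 6 mRNAs left their early range differed by gene in the second series. In peroxide II, TSA2, PRX1 and SRX1 first lay above all arrays of the first 21 min at 28 min, TSA1 and AHP1 at 35 min and DOT5 at 49 min. In menadione II, TSA1, AHP1, PRX1 and SRX1 did so at 35 min, TSA2 at 42 min and DOT5 at 56 min. In the first series all 6 did so at 30 min in peroxide I, with the pair of 20 min arrays averaged. For DOT5 this rests on the averaging, since its redo array at 20 min read 1.13 and its 30 min array 0.99. DOT5 was back within its early range at 40 and 49 min, at 0.20 and 0.56. In menadione I, TSA1 did so at 30 min, TSA2, AHP1, PRX1 and SRX1 at 40 min and DOT5 at 70 min. These are single arrays, and the times measured differ between courses.

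The 170 min array of peroxide I, a redo without a partner, was low for TSA2 (-0.46), between 2.86 at 155 min and 1.28 at 190 min, and for TSA1 (-0.36), between 2.24 and 0.13.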
